A study of Mus musculus with 32 samples.

Results

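The CC chemokine genes described here were Ccl2, Ccl3, Ccl4, Ccl5, Ccl6, Ccl7, Ccl9, Ccl12 and Ccl17. A gene belonged to the set when a probe of the expression array carried its symbol in the scanner files, and all 9 genes were found among the 16037 genes that could be tested. The cells were bone marrow-derived macrophages (BMDMs), which are grown from mouse bone marrow with the growth factor M-CSF. Donor mice were C57BL/6J (WT) or Ifnar1-/-, a germline knockout of 1 chain of the type I interferon receptor. Gene expression was measured on 32 one-colour arrays in 16 groups of 2 arrays, and every group was named by genotype and treatment.

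Each genotype had an untreated group and groups exposed for 6 h to zVAD, to LPS, to LPS and zVAD, to LPS, zVAD and Nec-1, to IFNβ, to IFNβ and zVAD, or to IFNβ, zVAD and Nec-1. LPS is a bacterial cell wall component that activates TLR4 and was given at 100 ng/mL according to the labels. IFNβ is a type I interferon and was given at 1000 U/mL according to the labels, while the methods and legends of the study give other doses of both. zVAD blocks caspases, which in stimulated macrophages permits necroptosis, a form of cell death driven by RIPK1, RIPK3 and MLKL. Nec-1 inhibits the kinase RIPK1. The labels do not say whether the 2 arrays of a group came from separate mice or cultures, so the p-values measure the spread between these samples, which may be technical.

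CC chemokines are small secreted proteins that draw leukocytes along a gradient by engaging CCR receptors on the cell surface. Ccl2, Ccl7 and Ccl12 mainly attract monocytes through CCR2, and Ccl3, Ccl4 and Ccl5 attract monocytes, T cells and other leukocytes. Ccl6 and Ccl9 are CCR1 ligands that macrophages produce at rest, and Ccl17 attracts T cells through CCR4. In macrophages, TLR4 signalling induces many of these genes through NF-kB, and part of the LPS program runs through type I interferon that the cells release and sense with IFNAR1.

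Each gene had 1 probe of 60 bases. In the mm9 coordinates of the scanner files, the probes of Ccl2 (chr11:81850650-81850709), Ccl7 (chr11:81860656-81860715) and Ccl12 (chr11:81916764-81916823) lay within 66.2 kb. The probes of Ccl5 (chr11:83339296-83339355), Ccl9 (chr11:83388223-83388282), Ccl6 (chr11:83401997-83402056), Ccl3 (chr11:83461358-83461417) and Ccl4 (chr11:83478052-83478111) lay within 139 kb, and 1422 kb separated the neighbouring ends of the pair of clusters. Ccl17 lay on another chromosome, at chr8:97335770-97335829. No run of bases shared by the probes of any pair of members was longer than 8 bases. The Ccl2 probe was printed 10 times on each array, and the log2 standard deviation over these spots ran from 0.03 to 0.12.

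RefSeq promoter windows (build GRCm38.p6) were found for 5 of the 9 genes, Ccl3, Ccl6, Ccl9, Ccl12 and Ccl17. The 250 bases before the start are printed for Ccl12, the member whose level spanned the widest range over the groups, and for Ccl9, which was called in WT cells with LPS and not with IFNβ. Capitals mark matches to a TATA box (TATAAA, gene strand), an AP-1 site (TGANTCA, both strands), an interferon-stimulated response element (GAAANNGAAA, both strands) or an NF-kB consensus site (both strands). These windows lay at chr11:82101595-82101844 on the plus strand and at chr11:83578637-83578886 on the minus strand.
Ccl12: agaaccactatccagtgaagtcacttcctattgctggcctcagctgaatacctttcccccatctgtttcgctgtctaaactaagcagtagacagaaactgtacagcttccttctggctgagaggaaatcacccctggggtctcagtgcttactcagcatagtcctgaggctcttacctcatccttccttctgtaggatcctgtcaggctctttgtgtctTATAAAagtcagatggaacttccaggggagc
Ccl9: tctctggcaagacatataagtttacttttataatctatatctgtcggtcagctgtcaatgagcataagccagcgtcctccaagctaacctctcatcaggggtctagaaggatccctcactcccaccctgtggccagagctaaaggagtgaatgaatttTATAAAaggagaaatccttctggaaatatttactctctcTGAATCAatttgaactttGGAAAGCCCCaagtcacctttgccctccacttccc
The Ccl12 window held a TATA match from 31 to 26 bases before the start and no match to the other 3 motifs. In the Ccl9 window a TATA match lay at 92 to 87 bases, an AP-1 match at 53 to 47 bases and an NF-kB match at 35 to 26 bases before the start. Over 32817 promoter windows of the same length, 7.60% held the TATA motif, 6.75% the AP-1 motif, 7.25% the NF-kB motif and 2.97% the interferon-stimulated response element. No match to the 4 motifs was found in the windows of Ccl3, Ccl6 and Ccl17. These matches are a description of letters and not of binding.

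The probes of Ccl4 and Ccl12 each held the AU-rich letters TATTTAT, which stand in capitals in the following 30 bases of each probe and were looked for after the values had been seen.
Ccl4: tatTATTTATgttttagttataggacgcgt
Ccl12: gggcagtgtgaTATTTATtatgatatctaa
Of the 16037 probes tested, 1.43% held these letters.

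All 8 macrophage markers on the array were well above background on all 32 arrays. The log2 of their summed intensity ran from 19.4 to 19.9 in WT BMDMs and from 19.5 to 19.8 in Ifnar1-/- BMDMs. The brightest markers weigh most in such sums. The 8 neutrophil markers summed to between 13.5 and 15.6 in WT cells and between 15.7 and 16.8 in Ifnar1-/- cells, and the 5 fibroblast markers to between 8.77 and 10.4 in WT and between 10.9 and 12.6 in Ifnar1-/- cells. Pdgfra among the fibroblast markers and Fcer1a among those of mast cells were well above background on no array. Dendritic cell, T cell, B cell, and mast cell or basophil markers had ranges that overlapped between the genotypes or were higher in WT cells, with log2 sums of at most 13.5. Ifnar1 was lower in the Ifnar1-/- arrays by 2 of its 3 probes with no overlap, with medians of 8.51 in WT against 6.81 and of 10.6 against 8.14, while the ranges of the probe with medians of 13.2 and 11.8 overlapped. Whether these probes lie in the deleted part is not given in the sources used here. Each of the 4 slides held 1 genotype and 1 replicate number with all 8 treatments, so genotype and slide cannot be told apart within 1 treatment, and such differences are given as values without a test. In bulk RNA, fewer cells of a type and less RNA per cell cannot be told apart.

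The arrays of Ifnar1-/- BMDMs with LPS, zVAD and Nec-1 differed widely from each other. Ccl5 was 18.26 and 13.29 on the log2 intensity scale in replicates 1 and 2, where the untreated Ifnar1-/- arrays were 11.35 and 11.50. Ccl3 was 17.43 and 12.86 in the same order. Of the 9 genes, 7 had their largest difference between the 2 arrays of a group in this group, the exceptions being Ccl6 and Ccl7. Without this pair of arrays, 48 in place of 44 of the 63 gene-by-treatment differences were called in WT cells and 17 in place of 15 of the 54 that remained in Ifnar1-/- cells. The fits described in the text used all 32 arrays, and values without one of these arrays are given beside the results of this group that changed.

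**Figure D1:**
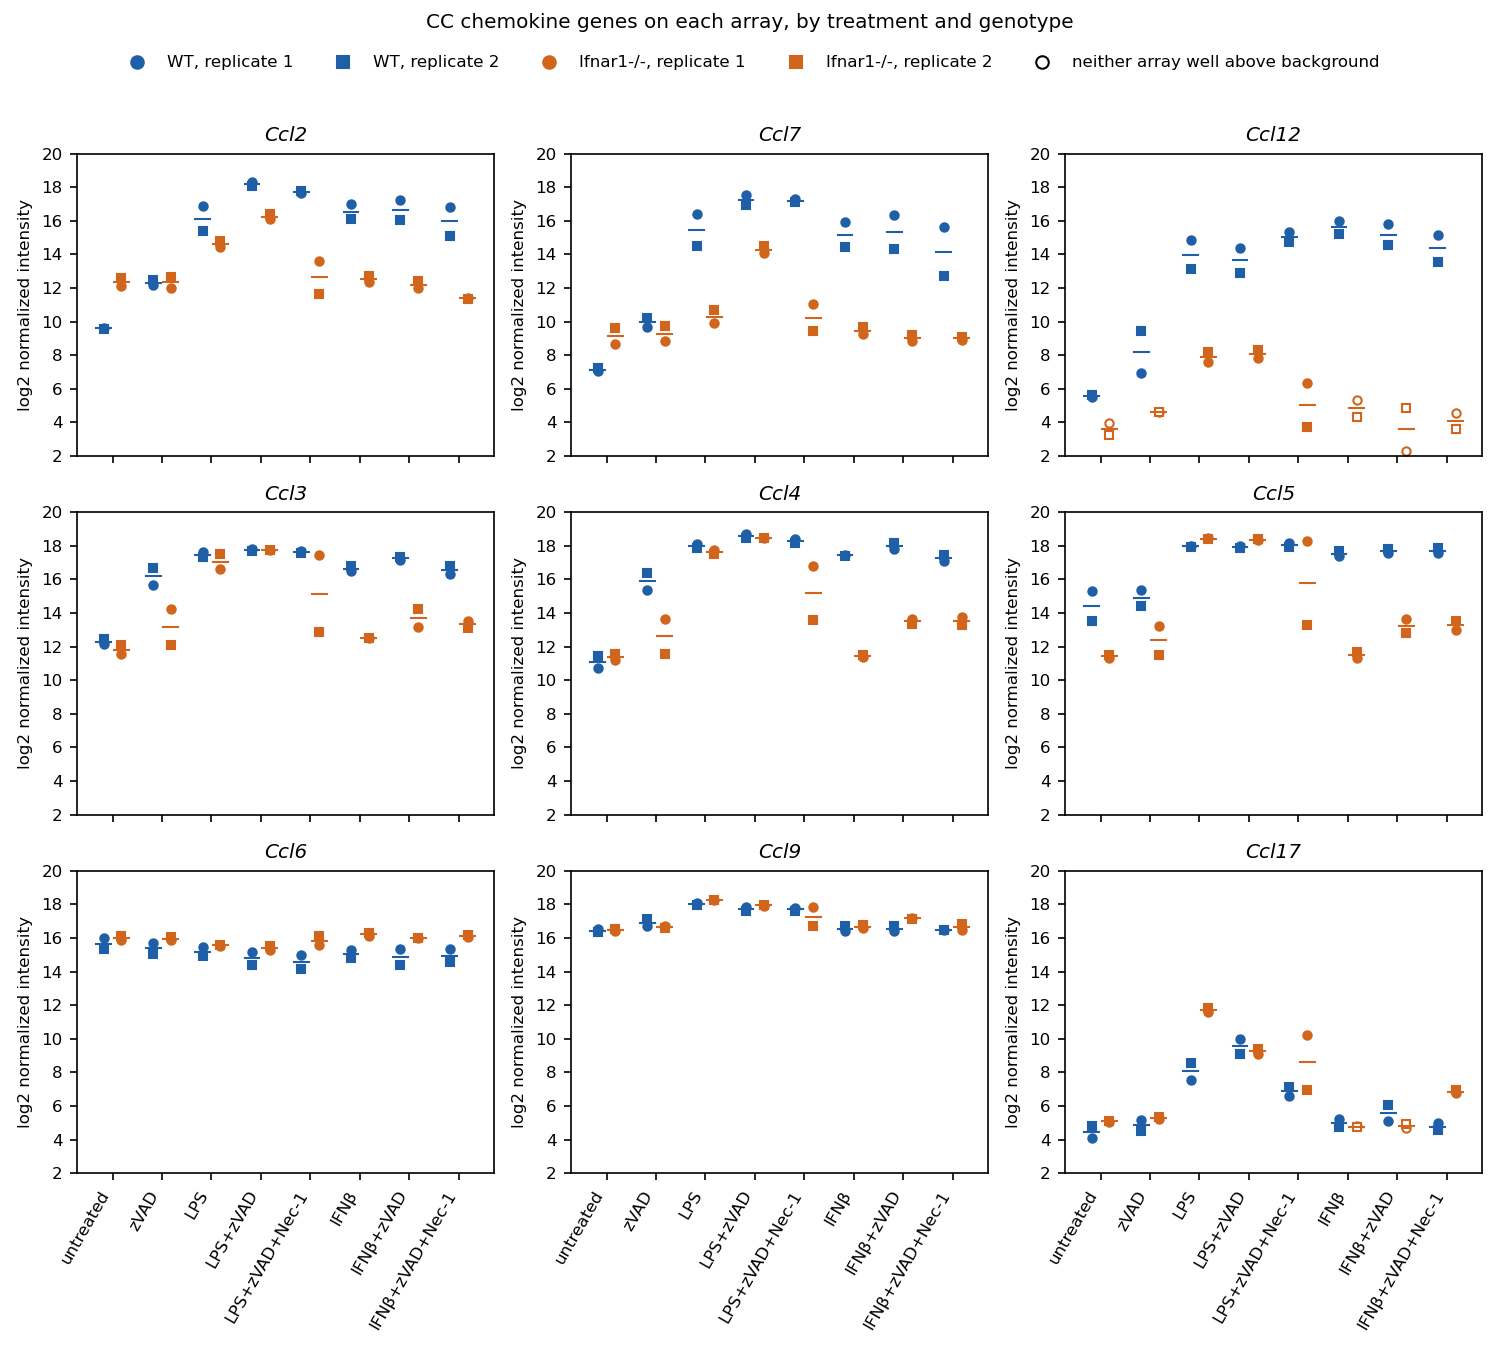
Log2 quantile-normalized intensity of each CC chemokine gene on each array (vertical axis) in the 8 treatments (horizontal axis), with WT in blue, Ifnar1-/- in orange, replicates as circles and squares, group means as bars and open symbols where neither array was well above background. In WT cells Ccl12 ran from 5.49 and 5.63 when untreated to 16.01 and 15.20 with IFNβ, while Ccl6 stayed between 14.18 and 16.31 on all 32 arrays.

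Most members rose in WT BMDMs with either stimulus. With LPS, 8 of the 9 genes rose and none fell, where 41.2% of all genes tested passed the same limit (limma, adjusted p under 0.05). The median over the 9 genes was 5.17 on the log2 scale, against -0.08 over all genes. With IFNβ, 6 of 9 rose against 35.3% of all genes called, with a median of 4.34 against -0.17. The same 6 genes, Ccl2, Ccl3, Ccl4, Ccl5, Ccl7 and Ccl12, rose with every treatment of WT cells that held LPS or IFNβ. With LPS and zVAD 8 of 9 rose (all genes 50.9%), with IFNβ and zVAD 6 of 9 (37.5%), and with IFNβ, zVAD and Nec-1 6 of 9 (31.7%). With LPS, zVAD and Nec-1, 8 rose and Ccl6 fell (40.9%). The Ccl17 rise of 2.41 (SE 0.65, adjusted p = 0.00592) in that last group was lost with normexp background correction (0.122) and without untreated replicate 1 (0.0593).

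The monocyte attractants rose with both stimuli. Ccl2, a principal CCR2 ligand, was 9.63 and 9.59 in untreated WT cells, 16.87 and 15.37 with LPS and 16.98 and 16.11 with IFNβ, so that the treated arrays lay far above the untreated ones. It rose by 6.51 (SE 0.59, adjusted p = 2.19e-07) with LPS, which is 91-fold, and by 6.93 (SE 0.59, adjusted p = 6.11e-08) with IFNβ. Ccl7, which engages CCR2 and further CCR receptors, was 7.04 and 7.21 untreated, 16.43 and 14.52 with LPS and 15.93 and 14.43 with IFNβ. The rise of Ccl7 was 8.35 (SE 0.81, adjusted p = 4.55e-07) with LPS and 8.05 (SE 0.81, adjusted p = 4.53e-07) with IFNβ, although the standard deviation of its LPS arrays was 1.35 on the log2 scale. Ccl12, a mouse CCR2 ligand, was 5.49 and 5.63 untreated, 14.85 and 13.13 with LPS and 16.01 and 15.20 with IFNβ. With IFNβ it rose by 10.05 (SE 0.95, adjusted p = 2.1e-07), or 1058-fold, the widest difference of any member with IFNβ, and with LPS by 8.43 (SE 0.95, adjusted p = 1.95e-06). The difference between its LPS and IFNβ levels was -1.62 with an interval of -3.61 to 0.38, which did not pass (adjusted p = 0.276).

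Among the attractants of T cells and other leukocytes, Ccl3, a CCR1 ligand, was 12.15 and 12.46 untreated, 17.64 and 17.31 with LPS and 16.48 and 16.81 with IFNβ. It rose by 5.17 (SE 0.89, adjusted p = 0.000149) and 4.34 (SE 0.89, adjusted p = 0.000904). Ccl4, whose gene neighbours Ccl3, was 10.71 and 11.42 untreated, 18.13 and 17.86 with LPS and 17.46 and 17.39 with IFNβ. Its arrays were thus high with either stimulus, and it rose by 6.93 (SE 0.69, adjusted p = 5.71e-07) with LPS and 6.36 (SE 0.69, adjusted p = 1.02e-06) with IFNβ. Ccl5, which attracts T cells and monocytes in part through CCR1, was 15.30 and 13.52 on the untreated arrays, which differed from each other more than those of any other member. With LPS Ccl5 was 18.01 and 17.93 and rose by 3.56 (SE 0.95, adjusted p = 0.00527), and with IFNβ it was 17.37 and 17.69 and rose by 3.11 (SE 0.95, adjusted p = 0.0152). All 6 calls of Ccl5 in WT cells were lost without untreated replicate 2, with adjusted p from 0.0749 to 0.176. The Ccl5 call with IFNβ was also lost without either of its own arrays (0.0523 without replicate 1 and 0.0734 without replicate 2). The calls with IFNβ and zVAD and with IFNβ, zVAD and Nec-1 were lost without replicate 2 of those groups (0.0565 and 0.0605).

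Ccl9 and Ccl17 differed between LPS and IFNβ. Ccl9, a CCR1 ligand, was 16.52 and 16.34 untreated, 18.06 and 17.96 with LPS and 16.39 and 16.73 with IFNβ. It rose by 1.59 (SE 0.26, adjusted p = 8.43e-05) with LPS, and with IFNβ its difference was 0.13 with an interval of -0.41 to 0.67. Ccl17, a CCR4 ligand made by activated dendritic cells and macrophages, was 4.11 and 4.84 untreated and 7.56 and 8.58 with LPS. The rise was 3.60 (SE 0.65, adjusted p = 0.000219), while Ccl17 with IFNβ was 5.25 and 4.78, well above background on 1 of 2 arrays. Compared directly, 2 of 9 members were higher with LPS than with IFNβ in WT cells and none lower. This share lay near that of all genes, of which 20.3% were called. The 2 members were Ccl9 at 1.45 (SE 0.26, adjusted p = 0.000563) and Ccl17 at 3.06 (SE 0.65, adjusted p = 0.00235). In a fit of only these arrays Ccl9 missed the limit (adjusted p = 0.0583).

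Ccl6, another CCR1 ligand, was the member with the narrowest range over the 16 groups. It was 15.98 and 15.32 in untreated WT cells, 15.44 and 14.91 with LPS and 14.97 and 14.18 with LPS, zVAD and Nec-1. In that last group it fell by 1.08 (SE 0.36, adjusted p = 0.0223), a call that was lost with scaling to the 75th percentile (adjusted p = 0.249), in a fit of only these arrays (0.11), without replicate 2 of the group (0.239) and without untreated replicate 1 (0.205). Replicate 1 was the higher array of Ccl6 in every WT group, and with the slide as a block Ccl6 was also called lower in WT cells with LPS (-0.48, adjusted p = 0.00413), IFNβ (-0.60, 0.000882), LPS and zVAD (-0.87, 1.33e-05), IFNβ and zVAD (-0.79, 6.99e-05) and IFNβ, zVAD and Nec-1 (-0.70, 0.000277).

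In the main fit zVAD alone changed 1 member. Ccl4 was 15.38 and 16.37 in WT BMDMs with zVAD against 10.71 and 11.42 untreated, a rise of 4.81 (SE 0.69, adjusted p = 0.0212). It was the only gene called in this comparison, so that 1 of 9 members stood against 0.00624% of all genes. The call was lost without untreated replicate 1 (adjusted p = 0.0525), without untreated replicate 2 (0.0898), without zVAD replicate 2 (0.604) and in a fit of only these arrays (0.845). Ccl3 was 15.69 and 16.67 with zVAD (adjusted p = 0.275), and Ccl2 was 12.17 and 12.46 (adjusted p = 0.22, and 0.048 with the slide as a block, which called 2 members). Ccl3 (3.88, adjusted p = 0.00372) and Ccl2 (2.70, 0.0377) passed without the pair of Ifnar1-/- arrays with LPS, zVAD and Nec-1. Ccl7 was 9.69 and 10.22 and Ccl12 6.93 and 9.47, so that the arrays of these genes lay above the untreated arrays without passing the limit. At an unadjusted p under 0.05, 5 of the 9 members passed, against 901 of 16037 genes.

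**Figure D2:**
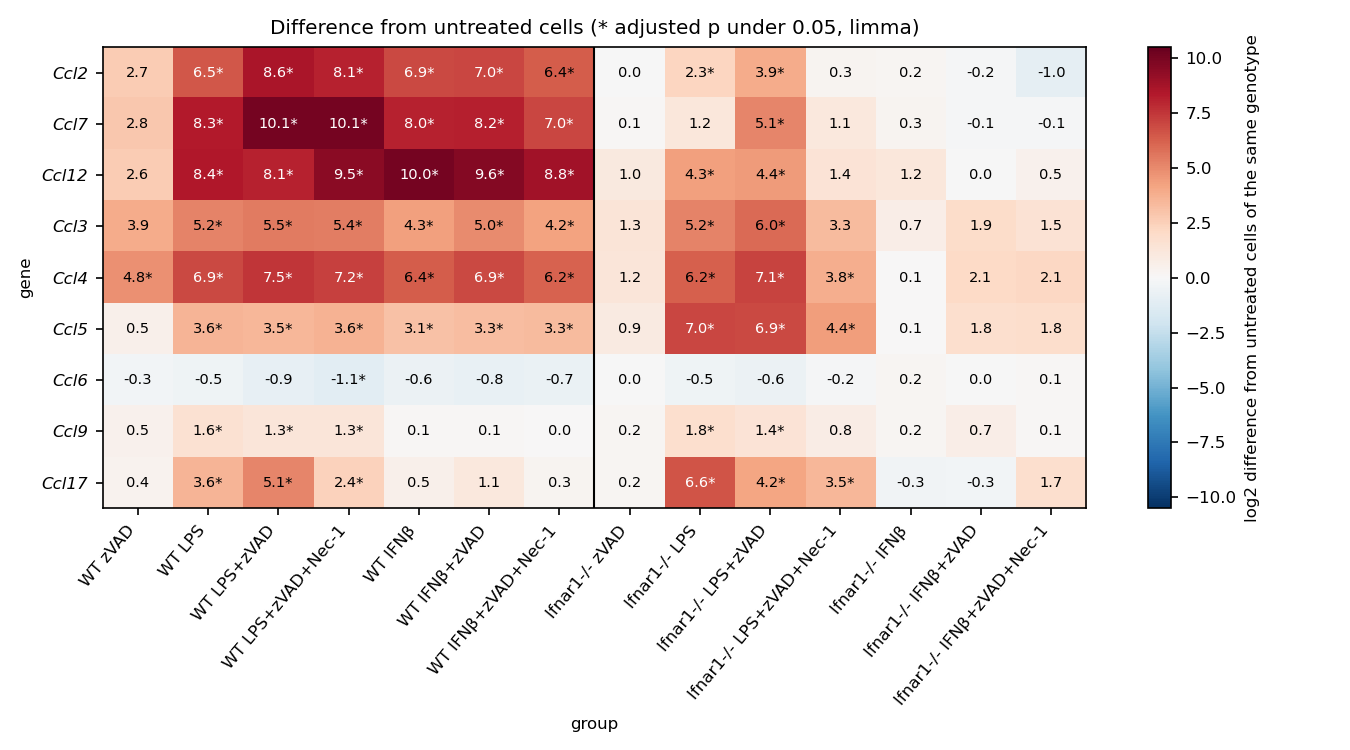
Log2 difference of each gene (rows) from untreated cells of the same genotype in the 14 treated groups (columns), by colour and number, with an asterisk where the limma adjusted p was under 0.05. Among the WT columns 44 of 63 cells carry an asterisk, and among the Ifnar1-/- columns 18 of 63, all of them in groups with LPS. Over all genes, the share called in a column ran from 0.00624% to 50.9% in WT and from 0% to 28.2% in Ifnar1-/- cells. In the latter it was also highest with LPS (24.8%) and with LPS and zVAD (28.2%).

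In Ifnar1-/- BMDMs, the members responded to LPS and no call was made with IFNβ. With LPS, 7 of 9 rose and none fell, where 24.8% of all genes were called, and with LPS and zVAD 8 of 9 rose (28.2%). With LPS, zVAD and Nec-1, 3 of 9 rose (1.32%). No member was called by limma with IFNβ (0%), zVAD (0%), IFNβ and zVAD (0.00624%), or IFNβ, zVAD and Nec-1 (1.76%). At an unadjusted p under 0.05, 0, 0, 3 and 2 members passed in that order, against 253, 61, 585 and 1603 of the 16037 genes. With the slide as a block 0 members were called in each. A fit without the pair of Ifnar1-/- arrays with LPS, zVAD and Nec-1 gave other calls. In it, Ccl4 (2.15, adjusted p = 0.0112) and Ccl17 (1.74, 0.0154) rose with IFNβ, zVAD and Nec-1.

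The response of Ccl2 to LPS was small in Ifnar1-/- cells, from 12.11 and 12.61 untreated to 14.42 and 14.82, a rise of 2.26 (SE 0.59, adjusted p = 0.00865) or 4.78-fold. That call was lost without LPS replicate 2 (adjusted p = 0.0702) and without untreated replicate 1 (0.0772). Ccl7 was 9.93 and 10.67 with LPS against 8.67 and 9.61 untreated, a difference of 1.16 with an interval of -0.54 to 2.86 that did not pass (adjusted p = 0.351). Ccl12 was not well above background on either untreated array of this genotype and reached 7.61 and 8.21 with LPS, which was at least 12.6-fold higher (adjusted p = 0.00283). Across the groups of Ifnar1-/- cells, Ccl12 was well above background on both arrays only with LPS and with LPS and zVAD, and on 1 of 2 arrays with LPS, zVAD and Nec-1. It was not well above background on any of the 10 other arrays. With LPS and zVAD it was 7.82 and 8.29, at least 14-fold above untreated (adjusted p = 0.00197).

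Ccl3, Ccl4 and Ccl5 reached high levels with LPS in Ifnar1-/- cells as well. Ccl3 went from 11.54 and 12.08 to 16.60 and 17.49, a rise of 5.24 (SE 0.89, adjusted p = 0.000401). Ccl4 went from 11.21 and 11.53 to 17.74 and 17.48, a rise of 6.24 (SE 0.69, adjusted p = 1.71e-05), and Ccl5 from 11.35 and 11.50 to 18.47 and 18.38, a rise of 7.00 (SE 0.95, adjusted p = 8.24e-05). Treated and untreated arrays did not overlap for these genes. The highest quantile-normalized value was 18.70, held by Ccl4 in WT replicate 1 with LPS and zVAD. Levels near it have little room to rise, which limits comparisons of Ccl4 and Ccl5 between genotypes and on adding zVAD to LPS. Ccl9 rose by 1.76 (SE 0.26, adjusted p = 0.000134), from 16.44 and 16.56 to 18.24 and 18.28. Ccl17 had its highest level of all 16 groups here, 11.60 and 11.86 against 5.08 and 5.13 untreated, a rise of 6.62 (SE 0.65, adjusted p = 7.64e-06). Ccl6 was 15.53 and 15.58 against 15.91 and 16.11, a difference of -0.45 that passed with the slide as a block only (adjusted p = 0.00929 against 0.43), as did that with LPS and zVAD (-0.58, 0.00147 against 0.255).

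With IFNβ, none of the 9 differences from untreated Ifnar1-/- cells passed. Ccl2 was 12.35 and 12.72 with IFNβ, Ccl4 11.41 and 11.49 and Ccl5 11.33 and 11.67. Their differences from untreated cells were 0.17 with an interval of -1.07 to 1.41 for Ccl2, 0.07 with -1.37 to 1.51 for Ccl4 and 0.07 with -1.91 to 2.06 for Ccl5. The interval of Ccl5 therefore reaches rises nearly as large as some that passed elsewhere. Both IFNβ arrays lay above both untreated ones for Ccl3, by 0.99 and 0.45 on the slides of replicates 1 and 2. The same held for Ccl6 (0.24 and 0.20), for Ccl9 (0.14 and 0.22), and for Ccl12, by 1.39 and 1.06 where no array was well above background. Ccl17 lay below on both, at -0.28 and -0.38, where neither IFNβ array was well above background. How many of all genes separate in this way was not counted. With IFNβ and zVAD, Ccl3 was 13.18 and 14.25, Ccl4 13.67 and 13.33 and Ccl5 13.62 and 12.82, all above the untreated arrays, and none passed over all genes. With zVAD alone, replicate 1 lay above replicate 2 for each of these genes, at 14.21 and 12.09 for Ccl3, 13.65 and 11.58 for Ccl4 and 13.22 and 11.52 for Ccl5.

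**Figure D3:**
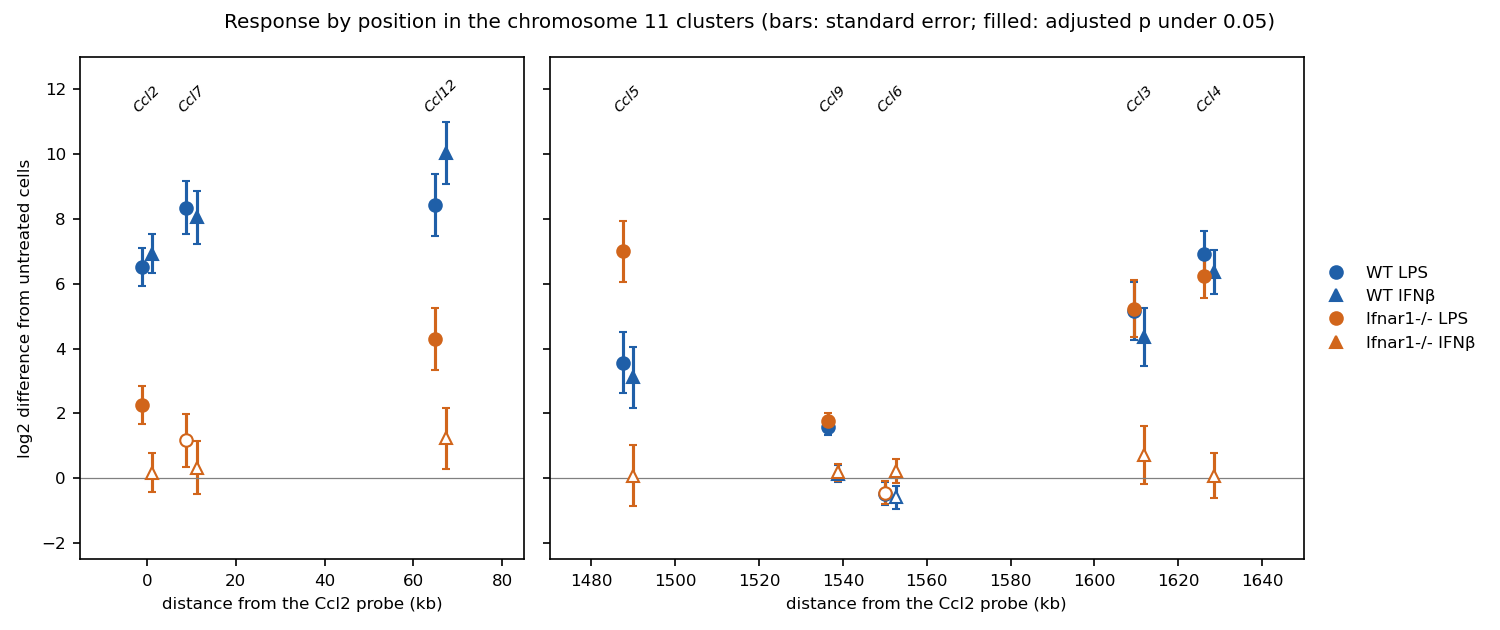
Log2 difference from untreated cells with LPS (circles) and IFNβ (triangles) in WT (blue) and Ifnar1-/- (orange) BMDMs, against the distance of each probe from the Ccl2 probe in kb, with standard errors and filled symbols where the adjusted p was under 0.05. Ccl2, Ccl7 and Ccl12 lie within 66.2 kb and show lower orange than blue circles. Ccl5, Ccl3 and Ccl4 lie 1489 to 1627 kb away, with circles at 3.56, 5.17 and 6.93 in WT and 7.00, 5.24 and 6.24 in Ifnar1-/- cells. Among them lie Ccl9, with circles at 1.59 in WT and 1.76 in Ifnar1-/- cells, and Ccl6, at -0.48 and -0.45.

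The responses of the genotypes were compared with an interaction contrast, the Ifnar1-/- difference from untreated minus the WT difference. For LPS, 2 of 9 members responded less in Ifnar1-/- cells and none more, where 6.63% of all genes were called. They were Ccl2 at -4.25 (SE 0.84, adjusted p = 0.00401) and Ccl7 at -7.18 (SE 1.15, adjusted p = 0.000721). With the slide as a block the count was 4, adding Ccl12 at -4.14 (0.0455 against 0.0742 without it) and, in the other direction, Ccl17 at 3.03 (0.0373 against 0.0551). The Ccl12 response of Ifnar1-/- cells started from untreated arrays that were not well above background, so the fitted contrast of Ccl12 is taken against background. Ccl3 and Ccl4 differed by 0.07 and -0.69, with intervals of -2.59 to 2.72 and -2.72 to 1.35. Ccl5 responded by 3.44 more, which did not pass over all 32 arrays (adjusted p = 0.146) and passed in a fit of only the arrays compared (0.0469) and without the pair of Ifnar1-/- arrays with LPS, zVAD and Nec-1 (0.00414). Ccl12 and Ccl17 passed under the same pair of settings, as well as with normexp and with the authors' values. The untreated level of Ccl5 was 15.30 and 13.52 in WT cells and 11.35 and 11.50 in Ifnar1-/- cells.

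For IFNβ, 4 of 9 responded less in Ifnar1-/- cells and none more, where 18.8% of all genes were called. These were Ccl12 at -8.82 (SE 1.35, adjusted p = 0.000146), Ccl7 at -7.72 (SE 1.15, adjusted p = 0.000109), Ccl2 at -6.76 (SE 0.84, adjusted p = 1.75e-05) and Ccl4 at -6.28 (SE 0.97, adjusted p = 0.000165). Ccl3 missed the limit at -3.63 (SE 1.27, adjusted p = 0.0524), and passed with the slide as a block (0.0361), as did Ccl6 at 0.82 (0.00232). Ccl3 also passed with scaling to the 75th percentile (0.0195) and in a fit of only the arrays compared (0.0016). It passed as well without the pair of Ifnar1-/- arrays with LPS, zVAD and Nec-1 (0.00114). Ccl5 missed the limit at -3.04 (SE 1.34, adjusted p = 0.126). In these last settings Ccl5 passed too (0.0491, 0.0338 and 0.00432). The same 4 genes, Ccl2, Ccl4, Ccl7 and Ccl12, were called with IFNβ and zVAD (19.3% of all genes) and with IFNβ, zVAD and Nec-1 (18.2%), and in each Ccl6 was added with the block (adjusted p = 0.00316 and 0.00226). In each, Ccl3 was added by the fit without that pair of arrays (0.00429 and 0.00959). As Ccl12 in Ifnar1-/- cells with IFNβ was not well above background, its level in WT cells with IFNβ, 16.01 and 15.20, was at least 1335-fold above it, a value that also holds any difference between slides. All these contrasts share the untreated arrays of each genotype.

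With LPS and zVAD, 2 of 9 responded less (16.1% of all genes), Ccl2 at -4.69 (SE 0.84, adjusted p = 0.000883) and Ccl7 at -4.94 (SE 1.15, adjusted p = 0.00615). Ccl12 at -3.64 (adjusted p = 0.0746) passed with normexp (0.00218) and with the authors' values (0.0118). It also passed with only the arrays compared (0.0194) and without the pair of Ifnar1-/- arrays with LPS, zVAD and Nec-1 (0.0454). Ccl5 responded by 3.42 more (0.0931) and passed in the latter pair of settings (0.0254 and 0.00236). With LPS, zVAD and Nec-1, 4 of 9 responded less (17.8% of all genes), Ccl2, Ccl4, Ccl7 and Ccl12, with Ccl6 added by the block (0.000998). Without replicate 2 of the Ifnar1-/- group the Ccl4 call was lost (-1.77 in place of -3.38, adjusted p = 0.116), and Ccl5 and Ccl17 passed as larger responses (3.19 and 2.70). Without replicate 1 of that group, Ccl3 and Ccl9 passed as smaller responses instead (-4.31 with adjusted p = 0.000628, and -1.08 with 0.00658). The differences without replicate 1 and without replicate 2 were -8.81 and -6.87 for Ccl2, -9.73 and -8.18 for Ccl7, and -9.37 and -6.73 for Ccl12, with each call kept. The Ccl4 call was also lost without Ifnar1-/- untreated replicate 2 (0.0649), WT untreated replicate 1 (0.0777) and WT LPS, zVAD and Nec-1 replicate 1 (0.0667). For zVAD alone no response differed by limma (0% of all genes), with 3 members and 163 of 16037 genes at an unadjusted p under 0.05 and 0 members called with the slide as a block.

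**Figure D4:**
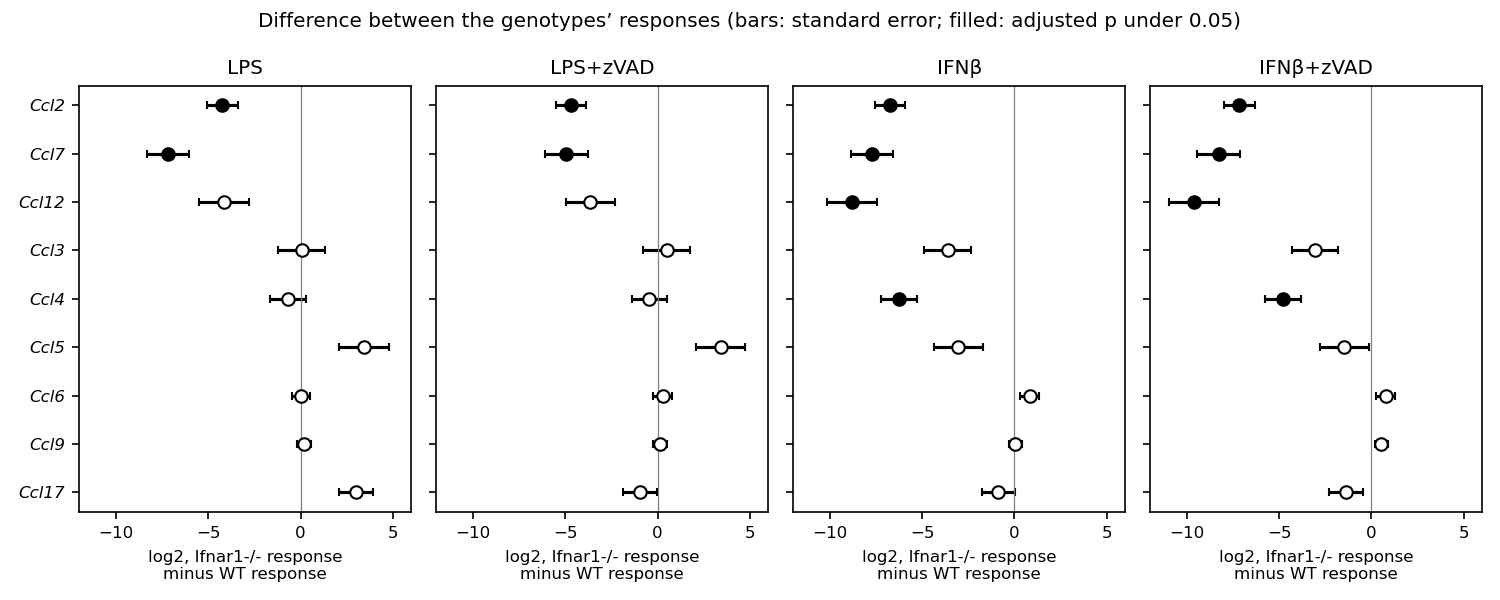
Difference between the responses of the genotypes (Ifnar1-/- minus WT, log2, horizontal axis) for each gene (vertical axis) with 4 treatments, with standard errors and filled symbols where the adjusted p was under 0.05. Ccl2 and Ccl7 lie left of 0 in all panels, and Ccl12 and Ccl4 are filled only in the panels with IFNβ.

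Levels set side by side between genotypes, which lie on different slides, showed where the responses began. Untreated Ifnar1-/- arrays were higher by 2.75 for Ccl2 and 2.01 for Ccl7, and the difference for Ccl5 was -2.99, with no overlap. With LPS the Ifnar1-/- mean minus the WT mean was -1.50 for Ccl2, -5.17 for Ccl7 and -6.08 for Ccl12. Ccl17 with LPS was higher by 3.66 in Ifnar1-/- arrays. The neutrophil and fibroblast marker sums, which were also higher on the Ifnar1-/- arrays, moved with the genotype in all treatments, and their part in these levels was not tested.

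Adding zVAD to LPS moved Ccl2, Ccl7 and Ccl17. In WT BMDMs 1 of 9 members was called (34.6% of all genes), Ccl2, which was 18.30 and 18.05 with LPS and zVAD against 16.87 and 15.37 with LPS. Ccl2 rose by 2.05 (SE 0.59, adjusted p = 0.0106), and the call was lost without LPS replicate 2 (1.30, adjusted p = 0.2), without LPS and zVAD replicate 1 (0.0566) and in a fit of only these arrays (0.0689). With the slide as a block 3 members were called, adding Ccl7 at 1.74 (0.0415) and Ccl6 at -0.39 (0.0166). In Ifnar1-/- cells 2 of 9 were called (8.25% of all genes). Ccl7 was 14.05 and 14.50 with LPS and zVAD against 9.93 and 10.67 with LPS, a rise of 3.98 (SE 0.81, adjusted p = 0.00442), or 15.7-fold, which was lost without LPS replicate 1 (0.0655). Ccl2 was 16.08 and 16.38 against 14.42 and 14.82, a difference of 1.61 that missed the limit in the main fit (0.104). This Ccl2 difference passed with the slide as a block (0.043) and in a fit of only these arrays (0.024). It also passed without the pair of Ifnar1-/- arrays with LPS, zVAD and Nec-1 (0.0488).

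On adding zVAD to LPS, the Ccl17 differences had opposite signs in the genotypes, a contrast that was not itself tested. In Ifnar1-/- cells it was 9.13 and 9.40 with LPS and zVAD against 11.60 and 11.86 with LPS, and fell by 2.46 (SE 0.65, adjusted p = 0.0234). This call was lost without any 1 of the 4 arrays, with adjusted p from 0.0855 to 0.179. In WT cells Ccl17 was 10.01 and 9.12 with LPS and zVAD against 7.56 and 8.58 with LPS, a difference of 1.50 (adjusted p = 0.0844). This WT difference passed without the pair of Ifnar1-/- arrays with LPS, zVAD and Nec-1 (0.00441). Adding zVAD to IFNβ called no member by limma in WT (0%) or Ifnar1-/- cells (0.00624%), where 0 and 1 members, against 637 and 370 of 16037 genes, had an unadjusted p under 0.05 and the slide as a block called 0 members in each.

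Nec-1 lowered Ccl17 in WT BMDMs with LPS and zVAD, where 1 of 9 members was called (28.5% of all genes). Ccl17 was 6.62 and 7.15 with Nec-1 against 10.01 and 9.12 without, and fell by 2.68 (SE 0.65, adjusted p = 0.00409), or 6.41-fold. In a fit of only these arrays the adjusted p was 0.0522. Ccl2 differed by -0.45 with an interval of -1.69 to 0.79, and Ccl7 by -0.02 with -1.72 to 1.68. With IFNβ and zVAD, Nec-1 called no member by limma in WT (0%) or Ifnar1-/- cells (1.58%), with 0 and 1 members, against 613 of 16036 and 1593 of 16037 genes, at an unadjusted p under 0.05 and 0 members called with the slide as a block.

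In Ifnar1-/- cells with LPS and zVAD, 5 of 9 members fell with Nec-1 (18.8% of all genes), in the group whose arrays differed widely. Ccl2 was 13.61 and 11.66 with Nec-1 against 16.08 and 16.38 without, and Ccl7 was 11.02 and 9.47 against 14.05 and 14.50. Both arrays were therefore lower for these genes, which fell by 3.60 (SE 0.59, adjusted p = 0.000547) and 4.03 (SE 0.81, adjusted p = 0.00241), with log2 differences of -2.63 and -3.26 without replicate 2 (adjusted p = 0.0137 and 0.0441). The falls of Ccl3, Ccl4 and Ccl12 rested on replicate 2, since without it their differences were -0.34, -1.65 and -1.71 and did not pass (0.821, 0.0705 and 0.376). Without replicate 1, Ccl5, Ccl9 and Ccl17 were also called lower (-5.06, -1.26 and -2.29, with adjusted p = 1.32e-05, 0.000274 and 0.0014). The falls of Ccl3 and Ccl12 were also lost without either array of LPS and zVAD (0.181 and 0.147 for Ccl3, 0.116 and 0.145 for Ccl12). In a fit of only these arrays none of the 5 passed, with adjusted p from 0.184 to 0.448, and with the slide as a block Ccl5 and Ccl6 were called as well (0.0364 and 0.0165). Against untreated cells, the rises of Ccl4, Ccl5 and Ccl17 in this group were 3.82 (SE 0.69, adjusted p = 0.00744), 4.35 (SE 0.95, adjusted p = 0.0243) and 3.49 (SE 0.65, adjusted p = 0.00979). None of these rises passed without replicate 1 (0.0694, 0.246 and 0.0694) or without either untreated array, and Ccl3 passed with the block (0.0372). Without replicate 2 they were 5.43, 6.83 and 5.11, and Ccl3 and Ccl9 were called as well, at 5.62 in place of 3.33 (adjusted p = 6.86e-06) and 1.37 in place of 0.78 (0.000221).

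**Figure D5:**
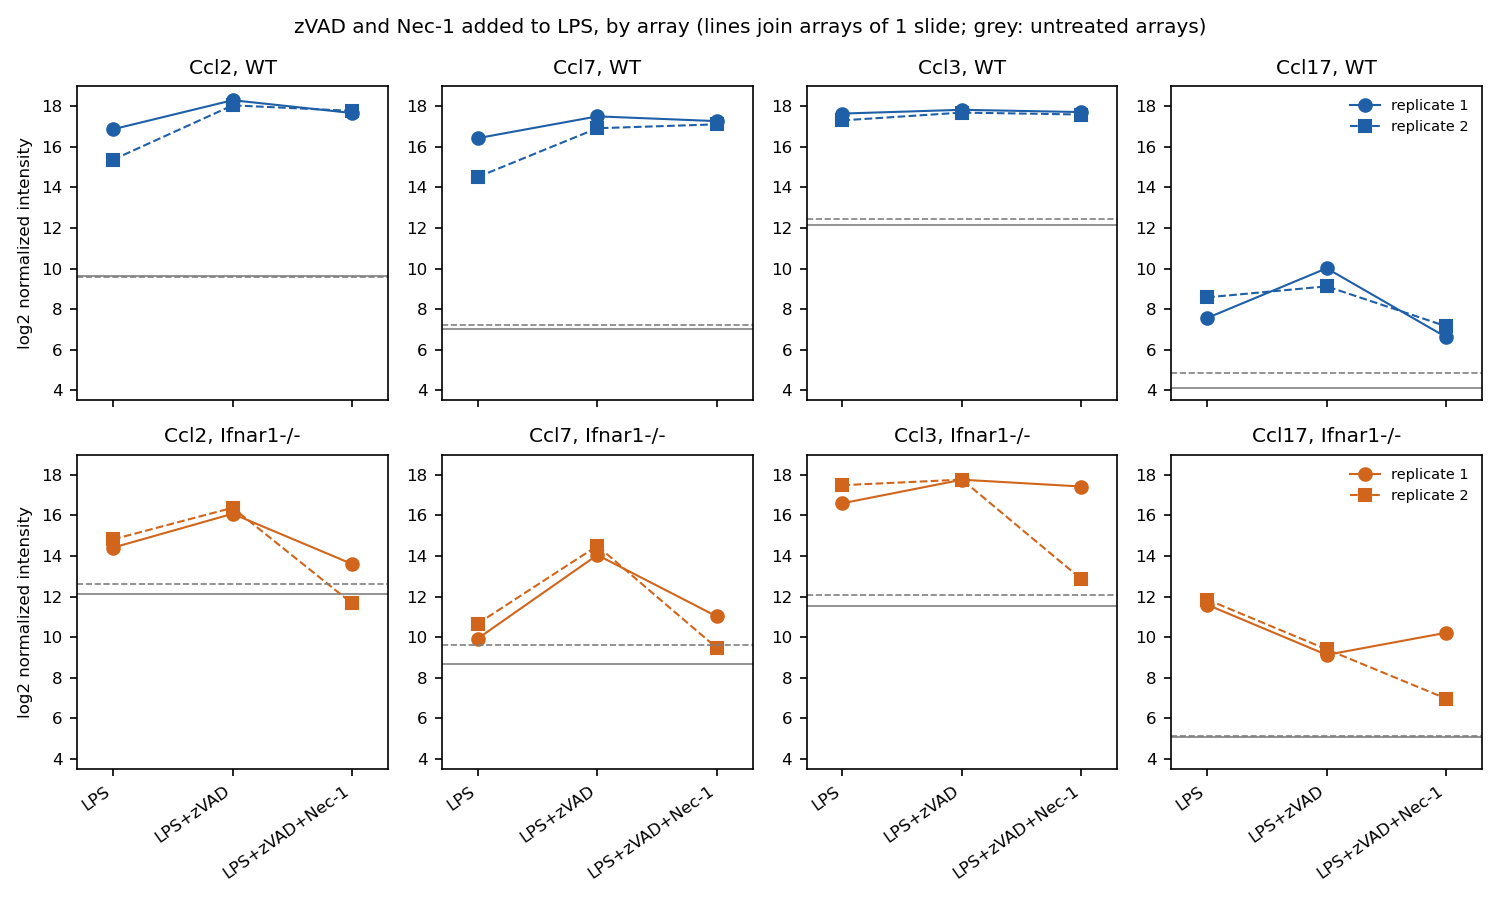
Log2 quantile-normalized intensity of Ccl2, Ccl7, Ccl3 and Ccl17 with LPS, LPS and zVAD, and LPS, zVAD and Nec-1 in WT (upper row) and Ifnar1-/- (lower row) BMDMs, with a line for each slide and grey lines for the untreated arrays. Ccl7 rises with zVAD on both Ifnar1-/- slides, Ccl17 falls on both, and Ifnar1-/- replicate 2 with Nec-1 lies near the untreated lines for Ccl2, Ccl7 and Ccl3.

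Of 11 other CC chemokine genes on the array, 6 passed the filter on dim probes. With LPS in WT cells 4 of them rose and 2 fell, with a median of 1.86 (41.2% of all genes called), and with IFNβ 3 rose and none fell, with a median of 1.24 (35.3% of all genes). Ccl8, another monocyte attractant, was 6.60 and 7.17 in untreated WT cells, 13.34 and 12.46 with LPS and 15.40 and 14.58 with IFNβ, and rose by 6.01 (SE 0.68, adjusted p = 1.95e-06) and 8.10 (SE 0.68, adjusted p = 5.19e-08). In Ifnar1-/- cells with LPS it was 6.32 and 6.94 against 5.04 and 4.90 untreated, and its response differed by -4.35 (SE 0.96, adjusted p = 0.00897). Ccl24, a CCR3 ligand that attracts eosinophils, rose with LPS in both genotypes, by 2.90 (SE 0.43, adjusted p = 3.57e-05) in WT and 3.40 (SE 0.43, adjusted p = 5.38e-05) in Ifnar1-/- cells, and these responses differed by 0.49 (SE 0.61, adjusted p = 0.779). With LPS in Ifnar1-/- cells 2 of the 6 rose and none fell, with a median of 0.59 (24.8% of all genes).

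Of 15 CC chemokine receptor genes on the array, 12 passed the filter. With LPS in WT cells 7 of the 12 rose and none fell, with a median of 2.12 (41.2% of all genes called). With LPS in Ifnar1-/- cells 1 rose and 2 fell, with a median of -0.09 (24.8% of all genes), and with IFNβ in WT cells 2 rose and 1 fell, with a median of 0.60 (35.3% of all genes). The share of the 12 that was called therefore lay near that of all genes in the latter pair of comparisons. Ccr1, a receptor for Ccl3, Ccl5, Ccl6 and Ccl9, rose by 3.37 (SE 0.54, adjusted p = 7.05e-05) in WT cells with LPS, and its response in Ifnar1-/- cells minus that in WT cells was -3.82 (SE 0.76, adjusted p = 0.00449). Its untreated arrays were low in WT cells, 3.51 and 3.18, against 7.26 and 6.68 in Ifnar1-/- cells, on other slides. With LPS, Ccr1 was 6.22 and 7.20 in WT and 6.84 and 6.21 in Ifnar1-/- cells, so the contrast came from the untreated levels. Ccrl2, a receptor-like protein that binds chemerin, rose by 3.38 (SE 1.06, adjusted p = 0.0153) with LPS in WT cells. Ccr9, the Ccl25 receptor, rose with LPS in both genotypes, from 6.62 and 6.02 to 9.55 and 9.22 in WT and from 5.91 and 6.61 to 9.20 and 9.32 in Ifnar1-/- cells.

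Over the 16 group means, the patterns of the members were compared as a description, since all genes share the same arrays. Pearson's r was 0.99 for Ccl3 with Ccl4 and 0.97 for Ccl2 with Ccl7, and between Ccl6 and Ccl12 it was -0.94. Among Ccl2, Ccl3, Ccl4, Ccl5, Ccl7 and Ccl12, the lowest value was 0.79, for Ccl5 with Ccl7. The genes outside the set with the most similar pattern were Kpna3 and Cd274 for Ccl2, Rab1 and Il10 for Ccl7, and Hinfp and Mlkl for Ccl12, with r from 0.97 to 0.99. For Ccl3 they were Niacr1 and Tnfaip3, for Ccl4 Slfn2 and Ets2, and for Ccl5 4933432I03Rik and Gm9706, also with r of 0.97. For Ccl6 they were Ptgfrn and Atp5c1-ps (0.98 and 0.97), for Ccl9 St7 and Slc39a14 (0.98 and 0.97), and for Ccl17 Pard6g and Gphn (both 0.93). Each value is over 16 groups that share their slides.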

How the data were processed

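Total RNA of BMDMs was hybridised to one-colour Agilent mouse arrays by the authors, and the deposited scanner files hold spot intensity (gProcessedSignal of Feature Extraction 11.5.1.1, with background subtracted). The study's methods filter on background and normalize by quantiles, the submitters' processing notes name limma, and the deposited series table holds log2 values that served as an alternative. Here, spots with outlier flags were left out (130 to 499 per array), repeat spots were averaged, and log2 values were quantile-normalized between arrays. Of 33140 probes with a gene symbol, 21465 were well above background on at least 50% of arrays (0.5 as a share) and gave 16037 genes, each by its brightest probe. No probe was saturated, and the highest value after quantile normalization was 18.70. Group means were fitted with limma 3.58.1 in R 4.3.3 over all 32 arrays (16 residual degrees of freedom), with Benjamini-Hochberg adjustment over all genes of a comparison and a limit of 0.05. The intervals are 95% intervals of this fit. The script was tested on simulated data. Arrays rather than read depth limit the precision.

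All 9 members are named, and for each the 2 other genes with the highest correlation over group means, along with at most 5 genes of each list, those with the largest LPS difference in WT cells. The members and lists were chosen with earlier results of these data known. Replicate numbers were taken as paired through the slide: within each genotype, the deviations of 2 groups correlated over genes in all 28 pairs of groups (r from 0.32 to 0.67 in WT and 0.17 to 0.58 in Ifnar1-/-). Bounds ("at least") compare with the higher of the dim probe's own value and the lowest signal well above background. Alternatives were scaling to the 75th percentile, normexp with an offset of 50, the authors' values, no filter, outlier spots kept, the mean of a gene's probes, the slide as a block, only the arrays compared, and leaving out arrays. Each member had 1 probe, so no other probe could be compared.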

Additional observations from a re-analysis of the deposited data

Results flagged for a closer look

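The response of Ifnar1-/- BMDMs minus that of WT BMDMs had a limma adjusted p under 0.05 in 20 of 63 gene-by-treatment pairs. Every one of these was below 0 in the main fit. Over all genes, the share called in these contrasts was 0% with zVAD, 6.63% with LPS and 16.1% to 19.3% with the other treatments. Those calls went in both directions, for instance 1644 higher and 1368 lower with IFNβ. With the slide as a block, calls above 0 were also made, such as Ccl17 with LPS (3.03) and Ccl6 with IFNβ (0.82). With LPS, the log2 difference was -4.25 for Ccl2 and -7.18 for Ccl7. With IFNβ, the log2 difference was -8.82 for Ccl12, -6.76 for Ccl2, -6.28 for Ccl4 and -7.72 for Ccl7. With LPS and zVAD, the log2 difference was -4.69 for Ccl2 and -4.94 for Ccl7. With IFNβ and zVAD, the log2 difference was -9.64 for Ccl12, -7.18 for Ccl2, -4.79 for Ccl4 and -8.30 for Ccl7. With LPS, zVAD and Nec-1, the log2 difference was -8.05 for Ccl12, -7.84 for Ccl2, -3.38 for Ccl4 and -8.96 for Ccl7. With IFNβ, zVAD and Nec-1, the log2 difference was -8.35 for Ccl12, -7.33 for Ccl2, -4.07 for Ccl4 and -7.17 for Ccl7. These contrasts share the untreated arrays of each genotype, and each genotype lay on its own slides. Ccl12 was not well above background on any Ifnar1-/- array that was untreated or held IFNβ, so its differences are taken against background and their exact size is uncertain.

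The effects of zVAD added to LPS or IFNβ, and of Nec-1 added to either with zVAD, were looked at for all 9 genes. In 6 of these gene-by-treatment pairs the effect had one sign on both WT slides and the opposite sign on both Ifnar1-/- slides. This difference between the genotypes was not tested. How many of all genes show such signs was not counted, so the 6 pairs have no share to set beside them. On adding zVAD to LPS, Ccl12 differed by -0.47 and -0.24 on the WT slides and by 0.21 and 0.08 on the Ifnar1-/- slides, so that the mean effects lay 0.50 apart. Ccl17 on adding zVAD to LPS gave 2.45 and 0.54 in WT and -2.47 and -2.45 in Ifnar1-/- cells, with a difference of -3.96 between the means. On adding Nec-1 to LPS and zVAD, Ccl5 differed by 0.18 and 0.09 on the WT slides and by -0.07 and -5.10 on the Ifnar1-/- slides, so that the mean effects lay -2.72 apart. Ccl6 on adding Nec-1 to LPS and zVAD gave -0.17 and -0.25 in WT and 0.29 and 0.56 in Ifnar1-/- cells, with a difference of 0.63 between the means. On adding Nec-1 to LPS and zVAD, Ccl12 differed by 0.92 and 1.83 on the WT slides and by -1.48 and -4.58 on the Ifnar1-/- slides, so that the mean effects lay -4.41 apart. Ccl17 on adding Nec-1 to IFNβ and zVAD gave -0.09 and -1.53 in WT and 2.08 and 1.98 in Ifnar1-/- cells, with a difference of 2.83 between the means. The Ccl5 and Ccl12 values in the latter genotype rest on the group with LPS, zVAD and Nec-1 whose arrays differed widely, and Ccl12 in that group was well above background on 1 of 2 arrays. Ccl17 with IFNβ and zVAD in Ifnar1-/- cells was not well above background on either array.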

How the results depend on the processing

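No single-gene result reversed where a call was made in either setting, over 3735 comparisons of a gene's result with an alternative. Of these, 64 lost a call and 79 gained one, and 145 changed sign with no call in either. With the slide as a replicate block, which uses the paired layout, 50 in place of 44 of the WT differences from untreated, 21 in place of 18 of those in Ifnar1-/- cells, 6 in place of 3 effects of added zVAD, 8 in place of 6 effects of added Nec-1, and 27 in place of 20 differences between responses were called, while the count for LPS against IFNβ was 2 in both fits. In fits of only the arrays compared, 0 effects of Nec-1 and 1 difference between LPS and IFNβ were called, since fewer arrays estimate the spread. Without the pair of Ifnar1-/- arrays with LPS, zVAD and Nec-1, 5 in place of 3 effects of zVAD, 2 in place of 1 effect of Nec-1 over the comparisons left and 25 in place of 16 differences between responses were called. Leaving out 1 array at a time gave 38 to 46 calls in WT, 14 to 22 in Ifnar1-/- cells, 1 to 4 for added zVAD, 4 to 10 for Nec-1, 19 to 31 for differences between responses and 2 each time for LPS against IFNβ. The low of 1 came without Ifnar1-/- LPS replicate 1, and the highs of 10 and 31 without replicate 1 of Ifnar1-/- LPS, zVAD and Nec-1. Under the other alternatives each count stayed within 1.5 times its value. Scaling to the 75th percentile moved the median over all genes by up to 0.28 (WT LPS and zVAD, from -0.15 to 0.12). The signal over background limits Ccl12 in 11 Ifnar1-/- arrays and Ccl17 in 5 arrays.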

Other observations

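Some receptor genes moved in ways the main account does not give, and they were picked after their values were seen. Ccr2, the receptor of Ccl2, Ccl7 and Ccl12, fell with LPS in Ifnar1-/- BMDMs, from 10.88 and 10.60 to 7.28 and 7.69, with a difference of -3.25 (SE 0.62, adjusted p = 0.000918). In WT cells it was 11.47 and 11.75 untreated and 9.79 and 10.97 with LPS, a difference of -1.23 (SE 0.62, adjusted p = 0.127), and the difference between these responses did not pass (-2.03 (SE 0.88, adjusted p = 0.202)). Ccr3, the receptor of Ccl24, was 9.11 and 9.03 in untreated WT cells, 11.46 and 11.02 with LPS and 8.04 and 8.34 with IFNβ. It rose by 2.17 (SE 0.28, adjusted p = 8.22e-06) with LPS and its difference with IFNβ was -0.88 (SE 0.28, adjusted p = 0.0202). In Ifnar1-/- cells Ccr3 was 9.34 and 9.50 with LPS against 9.52 and 9.74 untreated.

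Ccrl2 was 9.38 and 14.58 in replicates 1 and 2 of Ifnar1-/- BMDMs with IFNβ, where the untreated arrays were 9.48 and 9.43. In replicate 2 of that group Ccl2, Ccl4 and Ccl5 were 12.72, 11.49 and 11.67, close to the untreated arrays.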
